A study of Mus musculus with 22 samples.

Results

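The genes described here are 10 members of the BCL2 family, the proteins that decide whether a stressed cell keeps its mitochondria intact or dies. They were selected by gene symbol, as a list drawn up with earlier results of these data known: Bcl2, Bcl2l1, Bcl2l2 and Mcl1 on the survival side, Bax and Bak1 as effectors, and Bid, Bad, Bcl2l11 and Bbc3 as death signals. All 10 were among the 13594 genes of the deposited expression table, and all 10 passed the filter on low values. RNA had been sequenced from haematopoietic stem cells (HSCs), the rare marrow cells that renew all blood lineages, sorted from mice with the surface phenotype KSL CD48- CD150+. They came from mice that lacked Cd53 (knockout, KO) and from wild-type littermates (WT). Cd53 encodes a tetraspanin, a membrane protein of blood cells, and the series title links it to quiescence of stressed HSCs through the DREAM complex. Mice received G-CSF, a cytokine that drives HSCs out of the marrow, for 7 days, or saline as control. Bone marrow (BM) HSCs came from WT mice after saline (n = 4), KO mice after saline (n = 3), WT mice after G-CSF (n = 3) and KO mice after G-CSF (n = 4). Spleen HSCs came from WT and KO mice after G-CSF (n = 4 each), and spleens of saline-treated mice are not analysed here. The labels give neither the knockout allele nor the age or sex of the mice, and do not say whether replicates were separate animals or pools, so p-values measure the spread between these libraries.

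BCL2 family proteins meet at the outer mitochondrial membrane. BAX and BAK, when activated, form pores that release cytochrome c and so start the caspase cascade. BCL2, BCL-XL (encoded by Bcl2l1), BCL-W (Bcl2l2) and MCL1 hold them back. The BH3-only proteins BIM (Bcl2l11), PUMA (Bbc3), BID and BAD either occupy the survival proteins or activate BAX and BAK. In mice, HSCs depend on MCL1 for survival, and forced BCL2 expression enlarges the HSC pool.

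Promoter sequence is shown for the 2 survival genes that varied over the groups and for the 2 BH3-only genes with a forkhead motif, since forkhead factors of the FOXO class are known to induce both of those genes. The windows are from RefSeq (GRCm38.p6) and run from 250 bases before to 50 bases after each annotated start, and all 10 genes matched, with 16 windows between them. Capitals mark the motif named for each gene, on either strand. Bcl2 (chr1:106714291-106714540, minus strand) is shown with the GC box GGGCGG, the letters bound by SP1-type factors, which its window holds at 7 places.
Bcl2: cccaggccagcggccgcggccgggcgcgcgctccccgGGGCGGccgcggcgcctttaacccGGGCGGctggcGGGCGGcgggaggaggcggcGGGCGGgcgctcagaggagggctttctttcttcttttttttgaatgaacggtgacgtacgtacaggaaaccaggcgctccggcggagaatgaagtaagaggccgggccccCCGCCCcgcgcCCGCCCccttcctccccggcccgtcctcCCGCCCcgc
Bcl2l1 (chr2:152830844-152830873, minus strand) is shown only around the E2F letters TTTCGCGC, because its window lies within an exon of another annotated transcript. Bcl2l11 (chr2:128125788-128125867, plus strand) and Bbc3 (chr7:16310071-16310150, plus strand) are shown around the forkhead letters GTAAACA.
Bcl2l1: tccgcgtccctGCGCGAAAccttgagattc
Bcl2l11: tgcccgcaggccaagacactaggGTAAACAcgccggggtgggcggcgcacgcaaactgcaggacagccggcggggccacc
Bbc3: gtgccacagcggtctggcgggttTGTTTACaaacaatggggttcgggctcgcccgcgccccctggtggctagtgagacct
Among all 32851 mouse promoter windows of that length, 3.65% held GTAAACA, 0.323% held TTTCGCGC and 35.7% held GGGCGG on either strand. GGGCGG was in 11 of the 16 member windows, from 8 of the 10 genes. The STAT letters TTCNNNGAA, present in 8.3% of all windows, and the E2F letters TTTGGCGC, present in 0.514%, were in none of the 16. A match describes these letters and is not a binding site.

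Libraries held 22578088 to 31268856 reads over the listed genes. Levels are given in the deposited log2 CPM, read counts scaled per library on a log2 scale, with the SD over libraries. The deposited scaling is not a plain division by the read total. KO marrow replicate 1 after G-CSF held 22578088 reads over the listed genes but was scaled as 21509256, and WT saline replicate 3 held 30949116 and was scaled as 32696329. As a check of the labels, no KO library reached the Cd53 level of a WT library given the same treatment and tissue. In BM after saline the Cd53 level was 5.92 ± 0.18 log2 CPM in the 4 WT libraries and 3.07 ± 0.91 in the 3 KO libraries, or 13.9% of WT (two-sided exact permutation test, p = 0.0571, the smallest these groups allow). After G-CSF the KO level was 9.42% of WT in BM and 9.93% in spleen. All 9 HSC markers, among them Procr, Mecom and Hlf, were detected in every library, with summed levels of 3167 to 5047 CPM. T cell markers are not analysed here. Summed neutrophil markers (4 of 5 listed) were 2.08 to 24 CPM in every library but 1 WT saline library at 110 CPM, and Ngp was at 0 in some libraries.

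Per length, Bax was the most abundant of the 10 transcripts and Bbc3 the least. The median level over the 22 libraries, in CPM per kilobase of annotated exon, was 55.4 for Bax, 33.6 for Bid, 30.2 for Bcl2l1, 24.9 for Bad and 19.6 for Mcl1. The others were lower, at 4.58 for Bcl2, 2.49 for Bcl2l2, 1.97 for Bak1, 0.962 for Bcl2l11 and 0.315 for Bbc3. Over the 6 groups, 2 of the 10 members, Bcl2 and Bcl2l1, varied at an adjusted p below 0.05 (limma F test, Benjamini-Hochberg over 13571 genes, adjusted p = 0.000715 and 0.00133). The same test called 24.9% of all genes, so the share among the members was close to the background. Bax was next, with an adjusted p of 0.053, and voom, a weighted form of limma run on reads recovered from the table, called these 3.

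Bcl2 (mm10 chr1:106538178-106714274) was highest in HSCs of saline-treated marrow and lowest in spleen HSCs of WT mice after G-CSF. In BM after saline its log2 CPM was 6.07, 6.19, 5.78 and 5.81 in the 4 WT libraries and 6.02, 5.57 and 6.15 in the 3 KO libraries. In BM after G-CSF it was 5.82, 5.33 and 5.54 in WT and 4.98, 5.43, 5.35 and 5.01 in KO. In spleen after G-CSF it was 4.78, 5.34, 5.19 and 4.93 in WT and 4.99, 5.57, 5.03 and 5.35 in KO. Every KO marrow library after G-CSF was below every KO saline library, and every WT spleen library was below every WT saline library, whereas the WT marrow groups overlapped. The group means ran from 5.06 ± 0.25 in WT spleen through 5.19 ± 0.23 in KO marrow after G-CSF, 5.23 ± 0.28 in KO spleen and 5.57 ± 0.25 in WT marrow after G-CSF to 5.91 ± 0.30 in KO saline and 5.96 ± 0.20 in WT saline (SD). Each group overlapped the next one in that order. Bcl2 shares 558 exonic bases with the antisense gene D630008O14Rik.

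Bcl2l1 (mm10 chr2:152780668-152831728), which encodes BCL-XL, had the highest log2 CPM of the survival genes in each group and followed a similar order. In BM after saline its log2 CPM was 7.57, 8.07, 7.34 and 8.21 in WT and 7.41, 7.24 and 7.67 in KO. In BM after G-CSF it was 6.92, 7.30 and 7.07 in WT and 7.20, 7.13, 7.14 and 6.80 in KO. In spleen after G-CSF it was 6.54, 7.10, 6.95 and 6.98 in WT and 6.90, 6.80, 7.08 and 7.08 in KO. No G-CSF library of either genotype or tissue reached the lowest saline library of its own genotype. The 4 WT saline libraries were themselves spread, with 2 at 8.07 and 8.21 and the other 2 at 7.57 and 7.34. Means rose in the order WT spleen (6.89 ± 0.24), KO spleen (6.97 ± 0.14), KO marrow after G-CSF (7.07 ± 0.18), WT marrow after G-CSF (7.10 ± 0.19), KO saline (7.44 ± 0.22) and WT saline (7.80 ± 0.41), and each group overlapped the next.

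Mcl1 and Bcl2l2 did not pass the test in any comparison. Mcl1 encodes a short-lived survival protein whose amount is set largely by degradation, which transcript levels do not show. Its group means lay between 5.85 ± 0.27 log2 CPM in KO marrow after G-CSF and 6.24 ± 0.29 in KO spleen. In KO marrow after G-CSF the 4 libraries held 5.53, 5.77, 5.93 and 6.17, and in KO spleen 6.07, 6.43, 6.53 and 5.93. These groups overlapped, with a log2 difference of 0.39 (SE 0.15, adjusted p = 0.287 by limma). Bcl2l2, which encodes BCL-W, ran from 3.01 ± 0.48 in KO marrow after G-CSF to 3.56 ± 0.28 in WT spleen. A single KO marrow library at 2.34 stood below the other 3, which lay between 3.0 and 3.37. Bcl2l2 shares 594 exonic bases with Gm20521 on the same strand, so reads there cannot be assigned to it with certainty.

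**Figure D1:**
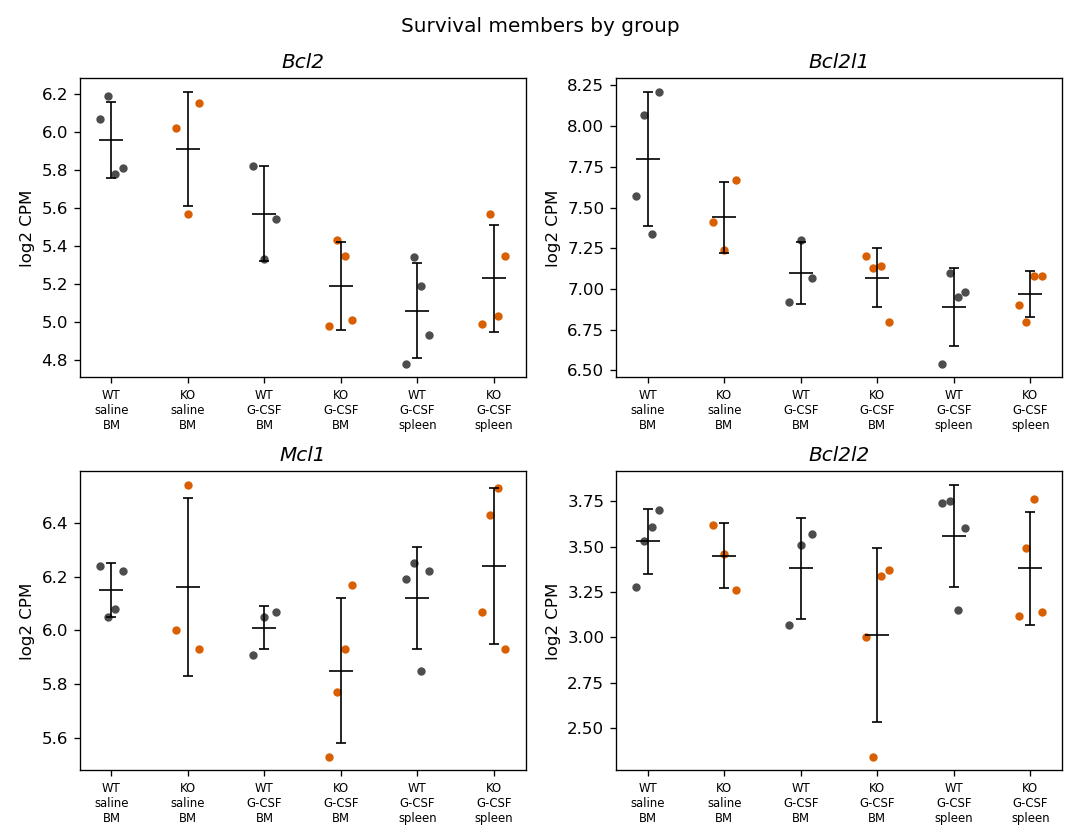
Log2 CPM of the 4 survival genes in each library (points; grey WT, orange KO) by group, with the group mean and SD as horizontal lines and bars. Bcl2 and Bcl2l1 sit highest in the saline groups, while the group means of Mcl1 span 5.85 to 6.24 and those of Bcl2l2 span 3.01 to 3.56.

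Bax (mm10 chr7:45461697-45466898), the effector that moves from the cytosol to mitochondria, ran the other way in WT mice. In BM after saline its log2 CPM was 6.20, 6.07, 6.18 and 6.39 in WT and 6.39, 6.29 and 6.51 in KO. In BM after G-CSF it was 6.31, 6.60 and 6.68 in WT and 6.18, 6.23, 6.61 and 6.30 in KO. In spleen after G-CSF it was 6.61, 6.64, 6.58 and 6.82 in WT and 6.59, 6.76, 6.71 and 6.19 in KO. All 4 WT spleen libraries were above all 4 WT saline libraries, and in KO mice 1 spleen library was below all 3 saline libraries. From the lowest to the highest mean the order was WT saline (6.21 ± 0.13), KO marrow after G-CSF (6.33 ± 0.19), KO saline (6.40 ± 0.11), WT marrow after G-CSF (6.53 ± 0.20), KO spleen (6.56 ± 0.26) and WT spleen (6.66 ± 0.11), with every neighbouring pair overlapping. Bax shares 192 exonic bases with Gm45808 on its own strand.

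Bak1, the effector that resides in the mitochondrial membrane, was low, at 75 to 370 reads per library. Its spread was set by KO marrow after G-CSF, where the 4 libraries held 4.11, 3.83, 2.25 and 2.04 log2 CPM. The other 18 libraries lay between 1.60 and 2.94, so 2 libraries of that group stood above all others. The KO spleen libraries held 1.87, 2.22, 1.79 and 1.60. The log2 difference of KO spleen from KO marrow was -1.19 (SE 0.34), which did not pass the test (adjusted p = 0.103 by limma). The call hung on single libraries. Without replicate 1 or 2 of KO marrow the difference was -0.84 or -0.93 (adjusted p = 0.317 and 0.314), and without replicate 3 or 4 it was -1.46 or -1.53 (adjusted p = 0.0359 and 0.0214). Bak1 shares exonic bases with Ggnbp1 on the opposite strand, whose levels in those 4 marrow libraries were 3.27, 3.08, 2.70 and 2.5 log2 CPM. In other marrow groups Ggnbp1 was 2.81 to 3.87 in WT saline, 2.78 to 3.22 in KO saline and 2.29 to 2.60 in WT after G-CSF. In spleen Ggnbp1 was 2.49 to 3.46 in WT and 2.33 to 3.19 in KO. The sources used here do not say whether counting used strand, and the part of Ggnbp1 reads in the Bak1 values was not tested.

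Bid and Bad, BH3-only genes with median levels of 6.90 and 5.99 log2 CPM beside 6.45 for Bax, moved little. BID links death receptors to mitochondria after cleavage by caspase-8. Its group means lay between 6.62 ± 0.39 log2 CPM in KO spleen and 7.01 ± 0.06 in WT spleen. In spleen the WT libraries held 7.05, 6.95, 7.07 and 6.97 and the KO libraries 6.91, 6.06, 6.67 and 6.85, so these groups did not overlap, but the difference of -0.39 (SE 0.15) did not pass (adjusted p = 0.309 by limma). BAD is a death signal held inactive by kinases downstream of growth factors. Its log2 CPM in BM was 5.84, 5.64, 5.83 and 5.86 in WT and 5.81, 5.69 and 5.91 in KO after saline, and 6.16, 5.97 and 6.03 in WT and 5.96, 6.15, 6.02 and 6.10 in KO after G-CSF. Every G-CSF marrow library was above every saline library, and the differences of 0.26 (SE 0.13) in WT and 0.25 (SE 0.13) in KO did not pass (adjusted p = 0.209 and 0.227 by limma). Bid shares 628 exonic bases with Bcl2l13 and Bad 524 with Gpr137, each on the opposite strand.

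Bcl2l11, which encodes BIM, was low but tightly grouped in WT mice. Its log2 CPM in WT was 2.81, 2.68, 2.67 and 2.77 in BM after saline, 3.13, 3.26 and 3.17 in BM after G-CSF, and 2.77, 2.91, 2.65 and 2.65 in spleen after G-CSF. In KO mice it was 2.58, 2.34 and 3.34 in BM after saline, 3.18, 3.15, 3.11 and 3.46 in BM after G-CSF, and 2.92, 3.35, 3.01 and 2.98 in spleen. In WT the marrow libraries after G-CSF stood above both the saline and the spleen libraries, and in KO 1 saline library at 3.34 lay among the G-CSF values. The difference with G-CSF in marrow was 0.46 (SE 0.20) in WT and 0.47 (SE 0.20) in KO, neither past the threshold (adjusted p = 0.157 and 0.145 by limma). Without KO saline replicate 3 the KO difference was 0.76 (adjusted p = 0.0156). Bbc3, which encodes PUMA, had only 8 to 40 reads per library and group means of -1.12 to -0.25 log2 CPM. Its differences between pairs of groups had standard errors of 0.51 to 0.55, and the largest against saline marrow, 0.68 log2 in KO spleen, had a 95% interval of -0.46 to 1.82.

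**Figure D2:**
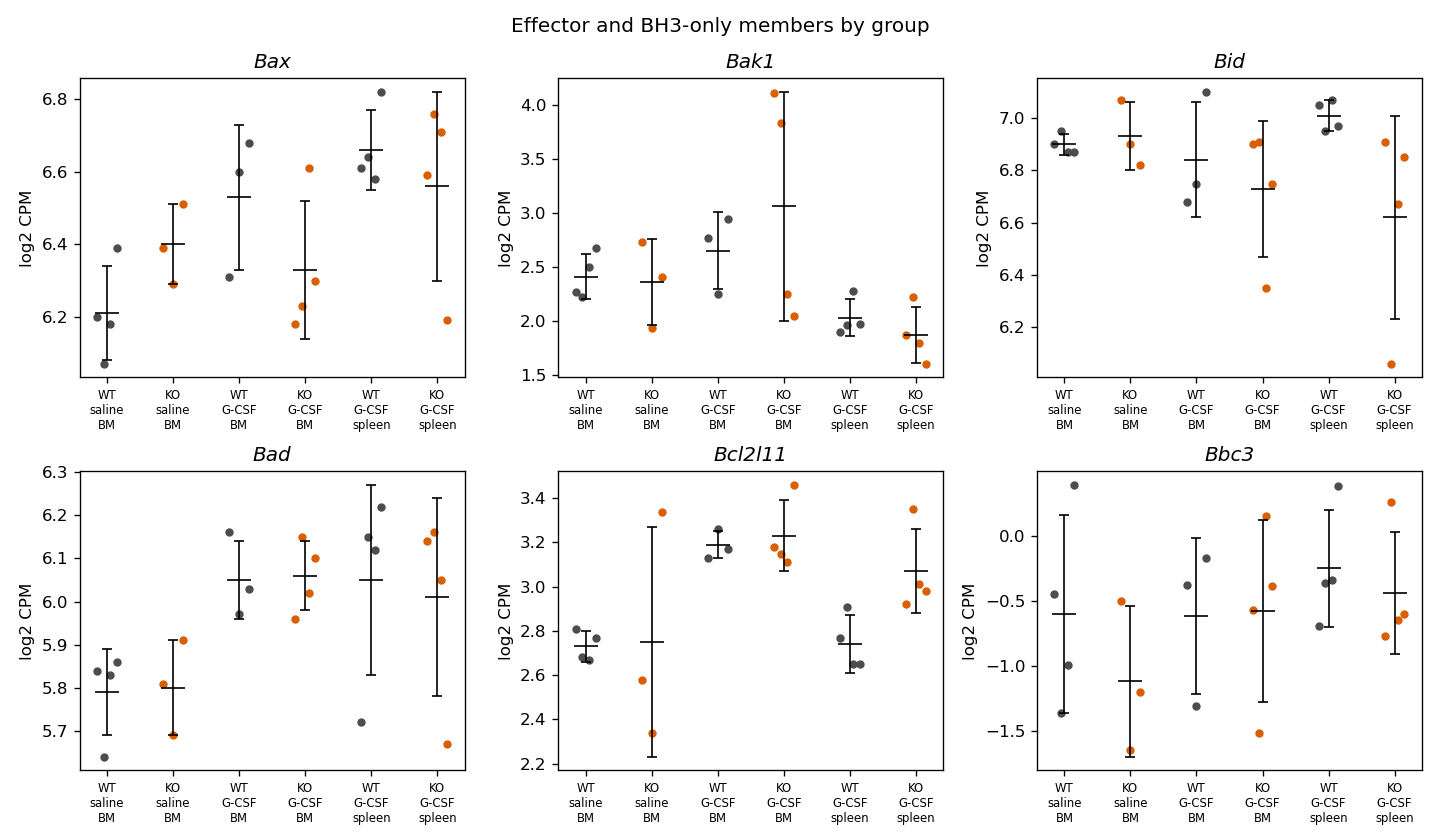
Log2 CPM of the effector and BH3-only genes in each library (points; grey WT, orange KO) by group, with group mean and SD. Bax is lowest in WT saline marrow, the Bak1 values of KO marrow after G-CSF split between 4.11 and 2.04, and Bcl2l11 in WT is highest in marrow after G-CSF.

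The effect of G-CSF on marrow HSCs was tested within each genotype. In WT marrow 1 of 10 members passed, against 11.3% of all genes (5.63% higher and 5.63% lower). That share is 1528 genes, and 967 without WT G-CSF marrow replicate 3. Bcl2l1 fell by 0.70 on the log2 scale (SE 0.17), to 61.5% of its saline level (adjusted p = 0.00994 by limma), and by 0.56 to 0.85 when a library was left out. Without WT G-CSF marrow replicate 1 its adjusted p was 0.0579. In KO marrow 1 of 10 members passed, against 9.89% of all genes (5.58% higher and 4.31% lower), which is 1342 genes, and 865 without KO saline replicate 1. Bcl2 fell by 0.72 (SE 0.18), to 60.8% of its saline level (adjusted p = 0.0116 by limma). That call was lost without KO saline replicate 1 (adjusted p = 0.0585) or replicate 3 (0.0781).

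The gene that passed thus differed by genotype, but the difference between genotypes itself did not pass. Bcl2 in WT marrow changed by -0.40 (SE 0.18, adjusted p = 0.173) and Bcl2l1 in KO marrow by -0.37 (SE 0.17, adjusted p = 0.192), both by limma. The genotype-by-G-CSF interaction was -0.32 (SE 0.25, adjusted p = 0.816) for Bcl2 and 0.33 (SE 0.24, adjusted p = 0.804) for Bcl2l1. Among the 10 members none passed this interaction, and 0% of all genes did, by limma or by voom. At an unadjusted p below 0.05 there were 1 member and 970 genes. With a library left out, 0 to 7 genes passed, the most without KO saline replicate 2. That member, Bax, had the interaction nearest the threshold, at -0.39 (SE 0.19, adjusted p = 0.699 by limma).

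Spleen HSCs after G-CSF were also compared with marrow HSCs after saline. Tissue and treatment both change in this step, so their parts cannot be told apart. These comparisons were added after the values had been seen. In WT mice 3 of 10 members passed, 1 higher and 2 lower, against 21.1% of all genes (11.7% higher and 9.42% lower). Bcl2l1 fell by 0.91 (SE 0.16), to 53.2% of saline marrow (adjusted p = 0.000335). Bcl2 fell by 0.90 (SE 0.17), to 53.5% (adjusted p = 0.000538). Bax rose by 0.46 (SE 0.12), to 137% (adjusted p = 0.0108, all by limma). The 3 calls held when any library of the groups was left out, and with libraries scaled to the total of the listed genes the Bax difference was 0.35 (adjusted p = 0.0506). That scaling moved the median of all genes in this comparison from -0.04 to -0.14, and the genes called from 1587 higher and 1279 lower to 1026 higher and 2109 lower. In KO mice 1 of 10 members passed, against 6.29% of all genes (4.19% higher and 2.09% lower), which is 853 genes, and 567 without KO saline replicate 3. Bcl2 fell by 0.68 (SE 0.18), to 62.5% of saline marrow (adjusted p = 0.0229 by limma), although its highest spleen and lowest saline libraries were both at 5.57. That call was lost without any of 4 libraries, KO saline replicates 1 and 3 and KO spleen replicates 1 and 3 (adjusted p = 0.0715 to 0.144). Bcl2l1 changed by -0.47 (SE 0.17, adjusted p = 0.117) and Bax by 0.17 (SE 0.13, adjusted p = 0.545) in KO.

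Genotype did not separate these responses by the test. The interaction of genotype with the step from saline marrow to G-CSF spleen was 0.22 (SE 0.24, adjusted p = 0.815) for Bcl2, 0.44 (SE 0.24, adjusted p = 0.537) for Bcl2l1 and -0.29 (SE 0.18, adjusted p = 0.613) for Bax by limma. No member passed, and 0% of all genes passed by limma or voom, with 0 members and 1415 genes at an unadjusted p below 0.05, and 0 to 2 genes passed with a library left out. In the authors' deposited table the log2 fold changes of WT spleen against saline marrow were -0.94 for Bcl2, -0.92 for Bcl2l1 and 0.52 for Bax. That table also gave 0.34 for Bad with an adjusted p of 0.0134, where the fit here gave 0.26 (SE 0.12, adjusted p = 0.116 by limma). For KO spleen against saline marrow the authors' deposited table gave -0.71 for Bcl2 with an adjusted p of 0.00994.

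**Figure D3:**
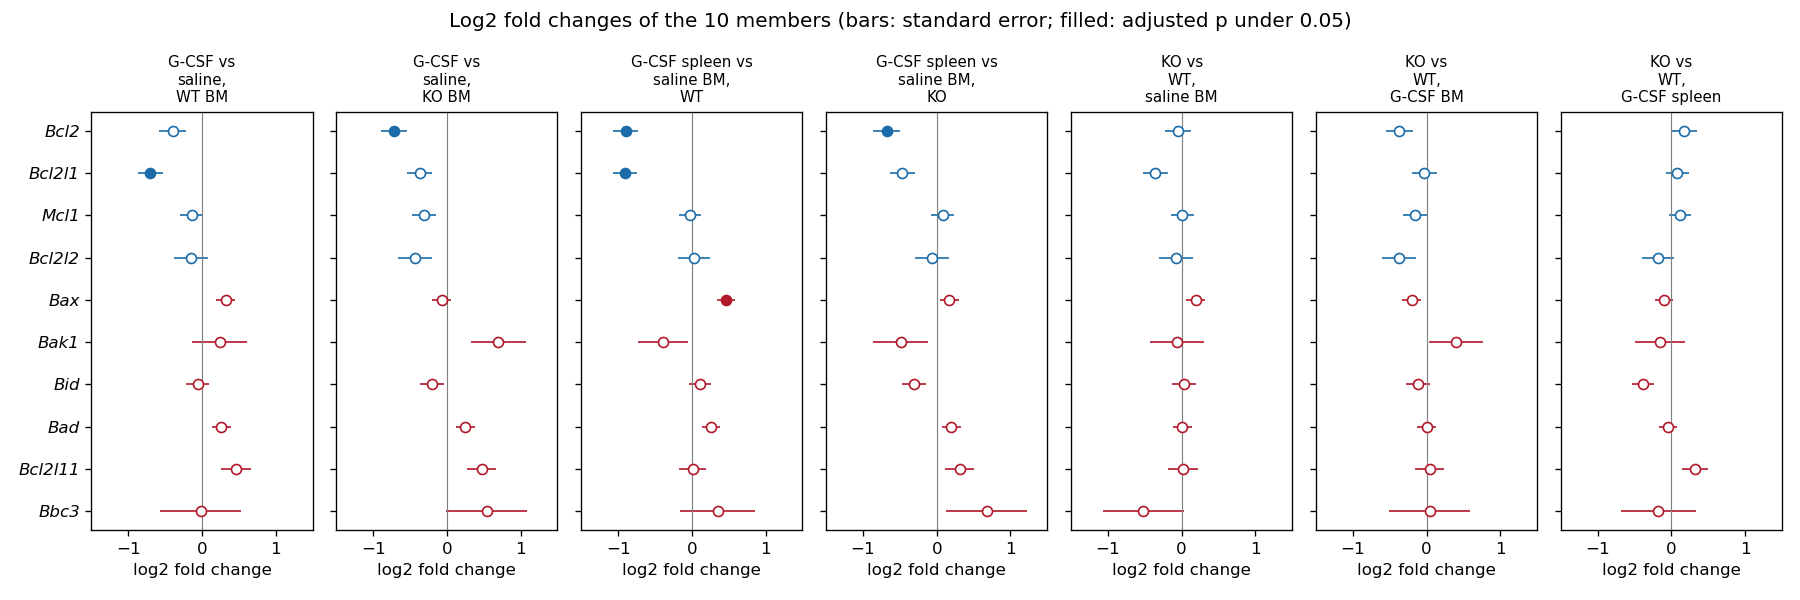
Log2 fold change of the 10 members in 7 comparisons, with the standard error as bars and filled points where the adjusted p is below 0.05. Filled points are Bcl2l1 (-0.70) with G-CSF in WT marrow, Bcl2 (-0.72) in KO marrow, Bcl2, Bcl2l1 and Bax in WT spleen and Bcl2 in KO spleen, and no point is filled in the KO against WT panels.

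Between tissues of G-CSF-treated mice no member passed in WT, where 13.8% of all genes did, or in KO, where 1.27% did. These shares changed when a library was left out. In WT they are 1867 genes, with 674, 1819 and 978 without marrow replicates 1, 2 and 3. Without WT spleen replicates 1, 2, 3 and 4 there were 1078, 1058, 1783 and 1388. In KO they are 172 genes, with 97 to 110 without any of the 4 spleen libraries. Without KO marrow replicates 1, 2, 3 and 4 there were 127, 129, 198 and 140. At an unadjusted p below 0.05 there were 2 members in each genotype, beside 3972 of all 13571 genes in WT and 1546 in KO. Voom called 0 members in either. In WT the nearest to the threshold was Bcl2, at -0.50 (SE 0.18, adjusted p = 0.0638 by limma), and without WT marrow replicate 2 it was -0.62 (adjusted p = 0.0429). In KO the corresponding Bcl2 difference was 0.04 (95% interval -0.30 to 0.39). The genotype-by-tissue interaction for Bcl2, the member nearest to the threshold, was 0.55 (SE 0.24, adjusted p = 0.357 by limma). No member passed it, and 0% of all genes did by limma or voom, against 1 member and 1758 genes at an unadjusted p below 0.05. Without KO marrow replicate 3, 245 genes passed this interaction and still no member, and with any other library left out 0 to 2 genes did.

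The direct comparison of knockout with wild type called no member in any of the 3 settings. In BM after saline limma called 0.00737% of all genes. After G-CSF it called 0.147% in BM and 0.0147% in spleen. These are 1, 20 and 2 genes, and single libraries moved them. In saline marrow there were 6 without KO replicate 2, and 2 without KO replicate 3 or WT replicate 2 or 4. In marrow after G-CSF there were 504 without KO replicate 3, 1 without KO replicate 2, 3 without KO replicate 1 and 7 without WT replicate 3. In spleen there were 31 without WT replicate 3, and 1 without WT replicate 2 or 4 or KO replicate 2, 3 or 4. No member passed in any of these. Voom also called 0 members in each. At an unadjusted p below 0.05 there were 510 of all 13571 genes in saline marrow, 1738 in marrow after G-CSF and 1598 in spleen. Among them was 1 member per setting. These were Bcl2l1 after saline (-0.36, SE 0.17, adjusted p = 1), Bcl2 in marrow after G-CSF (-0.37, SE 0.18, adjusted p = 0.389) and Bid in spleen (-0.39, SE 0.15, adjusted p = 0.309), all by limma. The 95% intervals of the KO minus WT difference lay within 1 log2 unit of 0 for 9 of 10 members after saline, 8 in marrow after G-CSF and 9 in spleen. Those outside were Bbc3 in each setting and Bak1 in marrow after G-CSF. Smaller differences are not excluded by these intervals, which reached -0.87 among the members inside. The authors' deposited table gave no member an adjusted p below 0.05 for KO against WT in saline marrow or in spleen.

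As a set, with survival and death genes pooled, the members did not shift in 1 direction. With G-CSF in marrow the median log2 fold change of the 10 was -0.04 in WT and -0.13 in KO, beside -0.01 in each over all genes. Bcl2, Bcl2l1, Bcl2l2 and Mcl1 changed there by -0.40, -0.70, -0.15 and -0.14 in WT and by -0.72, -0.37, -0.43 and -0.31 in KO. Bak1, Bad and Bcl2l11 were higher in both genotypes, Bid was lower in both, and Bax and Bbc3 differed in sign between genotypes. Only Bcl2l1 in WT and Bcl2 in KO passed. From saline marrow to G-CSF spleen the median of the 10 was 0.02 in WT and 0.01 in KO, beside -0.04 and -0.01 over all genes. The distance between survival genes and Bax is given as a description. Within a library, Bcl2 minus Bax in log2 CPM averaged -0.25 ± 0.30 in WT saline marrow and -0.49 ± 0.21 in KO saline marrow. After G-CSF it averaged -0.96 ± 0.42 in WT marrow, -1.14 ± 0.23 in KO marrow, -1.60 ± 0.30 in WT spleen and -1.33 ± 0.39 in KO spleen. The WT saline range (-0.58 to 0.11) did not meet the WT spleen range (-1.89 to -1.30). Bcl2l1 minus Bax went from 1.59 ± 0.39 in WT saline marrow and 1.04 ± 0.11 in KO saline marrow to 0.23 ± 0.24 in WT spleen and 0.41 ± 0.35 in KO spleen. These differences restate the members' own levels, were not tested, and carry meaning only between groups, since transcript length enters their absolute size. Mcl1 minus Bcl2l11, the pair of survival protein and BIM, was 3.42 ± 0.03 in WT saline marrow, 2.82 ± 0.07 in WT marrow after G-CSF and 3.38 ± 0.15 in WT spleen. In KO it was 3.40 ± 0.81 (2.59 to 4.20) in saline marrow, 2.63 ± 0.20 in marrow after G-CSF and 3.17 ± 0.25 in spleen, and the KO saline range overlapped all 5 other groups.

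**Figure D4:**
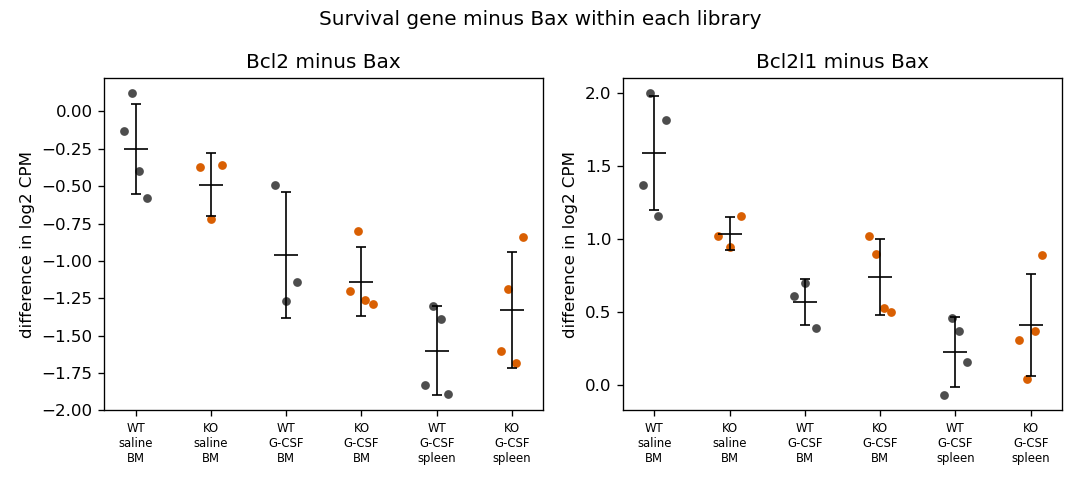
Bcl2 minus Bax and Bcl2l1 minus Bax in log2 CPM within each library (points; grey WT, orange KO) by group, with group mean and SD. Both differences are highest in WT saline marrow (-0.25 and 1.59 on average) and lowest in WT spleen after G-CSF (-1.60 and 0.23).

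Other transcripts of the sorted cells moved along with these groups. The summed HSC markers had a median of 4817 CPM in WT and 5015 CPM in KO saline marrow, 4018 and 3723 CPM in marrow after G-CSF, and 3374 and 3616 CPM in spleen. Summed megakaryocyte markers (3 of 4 listed) were 82.9 to 128 CPM over saline libraries and 34.4 to 56.7 CPM over G-CSF libraries. Summed macrophage markers (4 of 5) were 8.66 to 18.1 CPM after saline and 0.481 to 7.23 CPM after G-CSF, and each of these 4 markers was at 0 in some library. Erythroid markers (2 of 5), mostly Hbb-bt, were 16.5 to 41.6 CPM after saline and 44.9 to 103 CPM after G-CSF, and natural killer cell markers (2 of 3) 77.3 to 108 CPM and 135 to 213 CPM. Their part in the changes of Bcl2, Bcl2l1 and Bax was not tested. In sorted bulk samples, fewer cells of a kind and less RNA per cell cannot be told apart.

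The wider death pathway showed a limited set of changes, several in both genotypes. Of 16 genes listed for the apoptosome, caspases and their inhibitors, 15 were in the table and tested. With G-CSF, 2 of the 15 rose and 0 fell in WT marrow, where 5.63% of all genes were higher and 5.63% lower. In KO marrow 1 rose and 0 fell, where 5.58% of all genes were higher and 4.31% lower. Diablo, whose protein leaves mitochondria with cytochrome c and blocks inhibitors of caspases, went from a mean of 7.26 log2 CPM (7.12 to 7.33) to 7.88 (7.61 to 8.04) in WT marrow. It rose by 0.62 (SE 0.10, adjusted p = 0.000101) in WT and by 0.59 (SE 0.10, adjusted p = 0.000219) in KO by limma. In spleen against saline marrow it rose by 0.66 (SE 0.09) in WT and 0.46 (SE 0.10) in KO. Casp6, an executioner caspase, rose in WT by 0.31 (SE 0.10, adjusted p = 0.0366) in marrow and 0.51 (SE 0.09, adjusted p = 0.000296) in spleen. In WT spleen 4 of the 15 rose and 0 fell against saline marrow, where 11.7% of all genes were higher and 9.42% lower, the others being Aifm1, encoding apoptosis-inducing factor (0.37, SE 0.09), and Birc3, an inhibitor of apoptosis protein (0.37, SE 0.12). Birc3 was also higher in WT spleen than in WT marrow after G-CSF, by 0.55 (SE 0.13, adjusted p = 0.0111), the only call of this list between tissues. Of all 13571 genes, 940 were higher and 927 lower between those WT tissues. The calls of Casp6 in marrow and Birc3 in spleen were lost with libraries scaled to the listed genes (0.24 and 0.26, adjusted p = 0.0936 and 0.113). Casp6 in marrow was also lost without WT G-CSF marrow replicate 2 or 3 or WT saline replicate 1, 2 or 3 (adjusted p = 0.0507 to 0.211), Birc3 against saline without any of its 8 libraries (0.0552 to 0.085), and Birc3 between tissues without WT marrow replicate 3 (0.0868).

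Of 10 death receptor genes, 0 passed with G-CSF in marrow of either genotype. Against saline marrow, 2 of the 10 rose in WT spleen, where 11.7% of all genes were higher, and 1 in KO spleen, where 4.19% were, with 0 falling. Ripk3, the kinase of necroptosis, rose by 0.49 (SE 0.07, adjusted p = 3.62e-05) in WT and 0.29 (SE 0.08, adjusted p = 0.0216) in KO. Casp8, the initiator caspase that cleaves BID, rose by 0.43 (SE 0.11, adjusted p = 0.00652) in WT. Between WT tissues after G-CSF, Ripk3 was higher in spleen and 2 genes were lower, the receptor Tnfrsf1a (-0.56, SE 0.15) and its adaptor Tradd (-1.90, SE 0.58). Of all 13571 genes, 940 were higher and 927 lower in that comparison. Tradd was scattered in spleen, from 2.95 to 5.51 log2 CPM, beside 6.22 to 6.30 in marrow. Its call was lost without any WT marrow library or without spleen replicate 1 or 2 (adjusted p = 0.0632 to 0.123), that of Tnfrsf1a without marrow replicate 1 or 3 or spleen replicate 1 (0.065 to 0.0971), and that of Ripk3 in KO without spleen replicate 1 or 3 or saline replicate 1 or 2 (0.0527 to 0.128). Of 16 further BCL2 relatives, the 8 in the table were tested, and 1 passed in any comparison. Bcl2l14 rose by 0.97 (SE 0.26, adjusted p = 0.0109 by limma) in WT spleen against saline marrow, and by 0.77 without WT saline replicate 3 (adjusted p = 0.0515).

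Of 21 genes that regulate BCL2 family genes or proteins, 3 rose in marrow with G-CSF in each genotype, and these were Pim1, Pim2 and Stat3. Over all genes 5.63% were higher in WT and 5.58% in KO. STAT3 is activated by the G-CSF receptor, and the PIM kinases phosphorylate BAD. Pim1 went from 8.35 (8.25 to 8.51) to 9.69 (9.40 to 10.13) log2 CPM in WT marrow and from 8.66 (8.18 to 9.07) to 10.04 (9.58 to 10.38) in KO marrow, so the groups did not overlap. Its rise was 1.33 (SE 0.19) in WT and 1.38 (SE 0.19) in KO. Pim2 rose by 1.78 (SE 0.25) and 1.52 (SE 0.25), and Stat3 by 0.93 (SE 0.13) and 0.66 (SE 0.13), with adjusted p from 2.69e-05 to 0.00128 over these 6 tests by limma. In WT marrow 2 genes fell, where 5.63% of all genes were lower. E2f1, a cell cycle factor, fell by 0.94 (SE 0.20, adjusted p = 0.00266), and the other, Foxo3, named after its values were seen, had means of 8.02 log2 CPM after saline and 7.58 after G-CSF. In KO marrow 0 fell, where 4.31% of all genes were lower.

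In spleen the same list held 5 genes higher and 4 lower than saline marrow in WT, and 2 higher and 1 lower in KO. Over all genes 11.7% were higher and 9.42% lower in WT, and 4.19% and 2.09% in KO. Pim1 rose by 1.76 (SE 0.18) in WT and 1.25 (SE 0.19) in KO, and Pim2 by 1.45 (SE 0.23) and 1.44 (SE 0.25). Myc, a growth factor-responsive transcription factor, fell by 0.74 (SE 0.15) in WT and by 0.72 (SE 0.16) in KO. Stat5a fell by 0.59 (SE 0.14) in WT. Between tissues after G-CSF, 4 of the 21 were lower in WT spleen, where 940 of all 13571 genes were higher and 927 lower. These 4 were Myc at -1.10 (SE 0.16), Stat3 at -0.68 (SE 0.13), Stat5a at -0.65 (SE 0.15) and Usp9x, a deubiquitinase of MCL1, at -0.44 (SE 0.14). In KO spleen only Myc passed, at -0.75 (SE 0.15, adjusted p = 0.011 by limma), where 129 of all genes were higher and 43 lower. Leaving out a library ended some calls, namely Usp9x without any WT marrow library or spleen replicate 2, 3 or 4 (adjusted p = 0.0638 to 0.153) and Stat5a between tissues without WT marrow replicate 3 (0.0545). For Myc in KO spleen these were KO saline replicate 2 against saline marrow (0.0517) and KO spleen replicate 2 between tissues (0.0532). Over the 54 genes of the 4 lists, limma and voom called 0 between KO and WT in any setting and 0 in the interactions, with 0 to 7 and 2 to 8 genes at an unadjusted p below 0.05. Of all 13571 genes, 510 to 1738 and 970 to 1758 were below that cut.

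**Figure D5:**
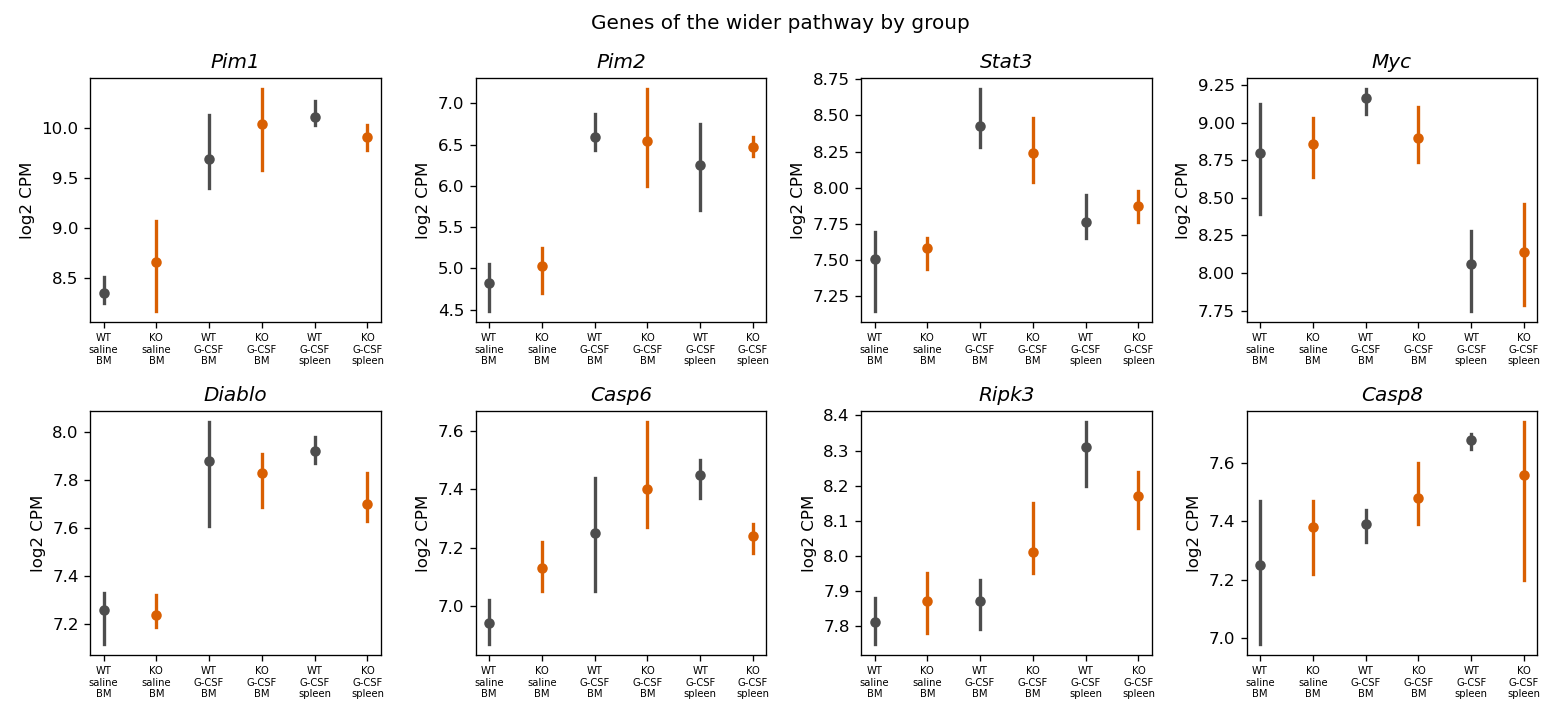
Mean log2 CPM (points) and range over libraries (bars; grey WT, orange KO) of 8 genes of the wider pathway by group. Pim1 and Pim2 are higher in all G-CSF groups than in saline, Stat3 is highest in marrow after G-CSF, and Myc is lowest in spleen (8.06 in WT and 8.14 in KO).

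Among the genes whose 6 group means, centred on their own mean, lay closest to those of Bcl2 were Tsnax, Pex26 and Aes, with root mean square differences of 0.0382 to 0.0606 log2 units against a range of 0.90 for Bcl2. For Bcl2l1, with a range of 0.91, they were Acot11, 4931422A03Rik, Tead3, Rora and Izumo4 (0.0448 to 0.0718). For Bax, with a range of 0.46, they were Ppa1, 1600012H06Rik, Smad2, Bcat2 and Sh3bp5 (0.0267 to 0.0451). None of these lists contained another of the 10 members. Lists of 5 out of 13571 genes are too short to show whether members share a pattern.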

How the data were processed

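RNA of sorted HSCs was extracted with NucleoSpin RNA XS and made into libraries with a SMARTer Ultra Low kit, per the labels' protocols. The authors deposited log2 CPM values per library and gene, per the file headers. The same deposited table holds the authors' p-values, adjusted p-values and log2 fold changes of 4 comparisons, of which only values named as theirs were used. Per the submitters' processing notes, alignment and counting tools included STAR 2.5.1a, Salmon 0.8.2 and featureCounts 1.4.6-p5 of Subread, besides limma, edgeR and bcl2fastq, with build mm10. Which of these made the counts, and whether counting used strand, is not given in the sources used here.

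The table had 13645 lines. Of these, 51 repeated an identifier with the same values and were removed, and 19 symbols turned into dates were looked up by identifier. All values corresponded to whole reads plus 0.5 within 0.05 reads. Genes above 1 CPM in at least 3 libraries were tested (13571). All 22 libraries entered 1 limma fit (3.58.1, R 4.3.3) with a mean per group and a variance trend, leaving 16 residual degrees of freedom. P-values were adjusted by Benjamini-Hochberg over all genes tested, with a threshold of 0.05. The fit was tested on simulated data. Differences carry their standard error. Overlaps, exons and positions come from GENCODE on mm10 and promoters from RefSeq.

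The members, lists and tests were chosen with earlier results of these data known, the motifs shown were chosen after a wider look, and the comparisons of G-CSF spleen with saline marrow were added after values had been seen. All 10 members are given with their levels. Folds are given where a member passed, or for the nearest member where none did, and other folds are given beside them for comparison. From the pathway lists, up to 4 genes of smallest p per list and comparison are named. Alternatives were no filter, log2 of CPM plus 1, scaling to the listed genes, voom on recovered reads, the compared groups alone, a replicate block, and leaving out each library. The block was the replicate number. Between tissues it was the number within genotype and treatment, which pairs marrow with spleen. The labels do not say whether such a pair shared a mouse. A few genes that these rules would name, and the B cell markers, are not reported here.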

Additional observations from a re-analysis of the deposited data

Results flagged for a closer look

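In 3 of 40 groups of 4 libraries, a single library lay far from the others of its group for a member (a gap above Dixon's 95% critical value). Chance flags about 1 in 20 groups. Mcl1 was 5.85 log2 CPM in WT spleen replicate 3, beside 6.19 to 6.25 in the other 3. Bad was 5.64 log2 CPM in WT saline marrow replicate 2, beside 5.83 to 5.86. Bbc3 was 0.26 log2 CPM in KO spleen replicate 2, beside -0.77 to -0.60.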

How the results depend on the processing

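Over 81 alternative settings of the member fold changes called, 72 kept the call, 9 lost it and 0 turned direction. Besides losses with a library left out, these were Bax in WT spleen scaled to the listed genes (0.35, adjusted p = 0.0506) and Bcl2 in KO spleen with the compared groups alone (-0.68, adjusted p = 0.0522), where Bcl2l1 passed instead (-0.47, adjusted p = 0.0496). Of the 35 fold changes named from the pathway lists, 11 lost their call under at least 1 alternative and 0 turned direction; with a replicate block these were Birc3 and Usp9x between WT tissues (0.54 and -0.40, adjusted p = 0.085 and 0.195), and with the compared groups alone Casp6 in WT marrow (adjusted p = 0.0951) and Ripk3 in KO spleen (0.0876). With each library left out in turn, the members called ranged from 0 to 1 for G-CSF in WT marrow, 0 to 1 in KO marrow, 0 to 1 for spleen against marrow in WT and 0 to 1 in KO, 3 to 4 for WT spleen against saline marrow (Bad passing without WT spleen replicate 1, adjusted p = 0.0275), 0 to 1 for KO spleen, and 2 to 4 over the 6 groups. With the same omissions, the genes called over the whole table ranged from 1 to 6 for KO against WT in saline marrow and 1 to 31 in spleen. For G-CSF in marrow they ranged from 967 to 1366 in WT and 865 to 1909 in KO. Between tissues the range was 674 to 1819 in WT and 97 to 198 in KO. For spleen against saline marrow it was 2036 to 2967 in WT and 567 to 885 in KO. The interactions of genotype gave 0 to 7 genes with G-CSF in marrow, 0 to 245 with tissue and 0 to 2 with G-CSF spleen against saline marrow. Scaling to the listed genes changed the genes called with G-CSF from 764 higher and 764 lower to 556 and 1047 in WT marrow, and from 757 and 585 to 589 and 799 in KO marrow. The genes called in KO against WT marrow after G-CSF (20) numbered 1 to 504 with a library left out, 11 by voom and 3 with the compared groups alone, which called 613 of 1342 for G-CSF in KO marrow and 78 of 172 between KO tissues. Same-numbered libraries hardly deviated together (r from -0.0705 to 0.155), and only between the KO marrow groups did each correlate best with its own number. A replicate block changed no member call, with Bcl2l1 at -0.67 in WT marrow and Bcl2 at -0.69 in KO marrow and -0.65 in KO spleen, and moved the genes called to 31 for KO against WT marrow after G-CSF and to 1036 of 1867 and 103 of 172 between tissues in WT and KO. Transcript levels alone are measured here, and Bbc3 and Bak1 had few reads.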
